A study of Mus musculus with 14 samples.

Results

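The genes that carry glucose into the cell and through glycolysis were followed probe by probe in mouse blastocysts made by nuclear transfer or by in vitro fertilisation (IVF). The set was *Slc2a1*, *Slc2a3*, *Hk1*, *Hk2*, *Gpi1*, *Pfkl*, *Pfkp*, *Aldoa*, *Pkm* (listed under its older name *Pkm2*) and *Ldha*. A probe was taken when its gene name in the array annotation was 1 of these 10 symbols and it was no control spot, which gave 10 of 27962 gene names and 23 of 41174 gene probes. The blastocysts were at embryonic day 4.0. Clones had been made from cumulus cells, the somatic cells that surround the oocyte and hence female, either by fusing the donor cell with an enucleated oocyte (fusion clones, n = 4) or by injecting its nucleus (injection clones, n = 4). Controls were male (n = 3) and female (n = 3) IVF blastocysts, so that 14 arrays were available. In the study as a whole, donors and oocytes came from BDF1 mice, a cross of the C57BL/6N and DBA/2 strains, and IVF controls were BDF1 embryos. All donor cells of the study were taken from mice heterozygous for an *Xist* knockout. The genotype of the blastocysts on these arrays is not given in the sources used here, nor is it given whether 1 array stands for 1 blastocyst, so the p-values measure the spread between arrays.

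The early cleavage embryo lives mainly on pyruvate and lactate, and glucose becomes a major fuel only when the blastocyst forms. Glucose enters through facilitative transporters of the Slc2a family, is trapped as glucose-6-phosphate by a hexokinase, and is then rearranged, phosphorylated a second time and split into triose phosphates. Pyruvate kinase closes the pathway, and lactate dehydrogenase turns pyruvate into lactate, a route that blastocysts use heavily even in the presence of oxygen.

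The RNA had been amplified in 2 rounds and hybridised to 1-colour Agilent arrays, on which 57.4 to 65.2% of gene spots were well above background. Each group filled a slide of its own. Clone arrays and IVF arrays differed in scanner model and in software version, so a difference between clones and IVF blastocysts and a difference between slides or scanners cannot be told apart. Differences between fusion and injection clones, and between the sexes, likewise cannot be told apart from differences between slides. All 6 epiblast genes and all 9 trophectoderm genes of the marker lists were well above background on all 14 arrays, as were 4 of 7 primitive endoderm genes and 1 of 11 cumulus cell genes. The summed trophectoderm signal was 787000 to 992000 in fusion clones, 692000 to 937000 in injection clones, 984000 to 1160000 in female IVF and 1050000 to 1090000 in male IVF blastocysts, on the linear normalized scale. The primitive endoderm sum was 80800 to 174000, 64900 to 143000, 122000 to 172000 and 83900 to 140000 in the same order, and the cumulus sum was 236 to 320, 216 to 571, 313 to 850 and 290 to 2120. The sums are carried by a few bright genes. Of 7 primitive endoderm genes by their brightest probe, 6 in fusion and 7 in injection clones had lower means than females, with median log2 differences of -2.54 and -3.57, and 1 was called lower in each (*Sox7*, adjusted p = 0.018, and *Lama1*, adjusted p = 0.0444). Single clones differed. *Sox17* was at 14.47 and 15.00 on fusion clone replicates 2 and 3 and at 14.81 on injection clone replicate 3, against 14.02 to 14.28 in females. It was lower on the other clones, whereas *Sox7* was below all females in every clone. Of 9 trophectoderm genes, 1 was called lower in each, *Elf5* in fusion clones (-2.96, adjusted p = 0.016) and *Id2* in injection clones (-1.12, adjusted p = 0.0396), and the median differences were -0.02 and -0.11. Both genes were below all females in every clone of either kind. *Elf5* was at 8.10 to 11.39 against 13.11 to 14.60, and *Id2* at 15.39 to 16.38 against 16.52 to 16.90. The epiblast sum was 45500 to 61400, 46200 to 67700, 48300 to 67000 and 51800 to 60300. Fewer cells of a type and less RNA per cell cannot be told apart in whole blastocysts, and the part of these shifts in the values below was not tested.

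The question for the 10 genes was whether clones reached the same transcript levels as IVF embryos of their own sex, and whether the mode of transfer mattered. No member probe passed an adjusted p of 0.05 (limma, adjusted over all probes tested) in any of the 4 comparisons. In fusion clones against female IVF blastocysts, 0 of 22 tested probes were called, where 9.5% of all probes tested were called. In injection clones against female IVF blastocysts it was 0 of 21, against a background of 3.67%. Between fusion and injection clones it was 0 of 21, against 0%, and between male and female IVF blastocysts 0 of 21, against 0.0593%. Groups did not overlap on 3, 0, 0 and 1 of the 20, 19, 21 and 18 member probes with a value on every array, where 25.7, 20.7, 3.3 and 12.6% of all probes did not overlap. The smallest adjusted p of a member was 0.124, 0.191, 0.814 and 0.641 in these 4 comparisons. An unadjusted p under 0.05 was reached by 4 of 22, 2 of 21, 0 of 21 and 1 of 21 member probes, where 27.2, 23.2, 6.17 and 7.76% of all probes tested reached it.

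A looser rule, patterned on the study's methods and taken here as an unadjusted p under 0.05 with at least a 2-fold difference, was met by 2 member probes in each clone comparison, both lower in clones. They were the brightest *Slc2a3* probe and the second *Pfkp* probe in fusion clones, and the brightest *Slc2a3* probe and the second *Ldha* probe in injection clones. Of all probes, 8.59% were lower by this rule in fusion clones and 7.08% in injection clones, and 17% and 14% differed by it in either direction, so that 2 of 22 and 2 of 21 were not above the background in either direction and close to it in the lower one. The *Slc2a3* entries rest on a female group with 1 array left, and with the spots of the other 2 kept 1 member probe met the rule in each comparison. No member met it between fusion and injection clones or between the sexes, where 2.38 and 5.79% of all probes did. The median difference of the member probes was -0.10 on the log2 scale in fusion clones (-0.12 over all probes) and -0.04 in injection clones (-0.08 over all probes). Both clone comparisons and the comparison of the sexes use the same 3 female IVF arrays, so their values are not independent.

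**Figure D1:**
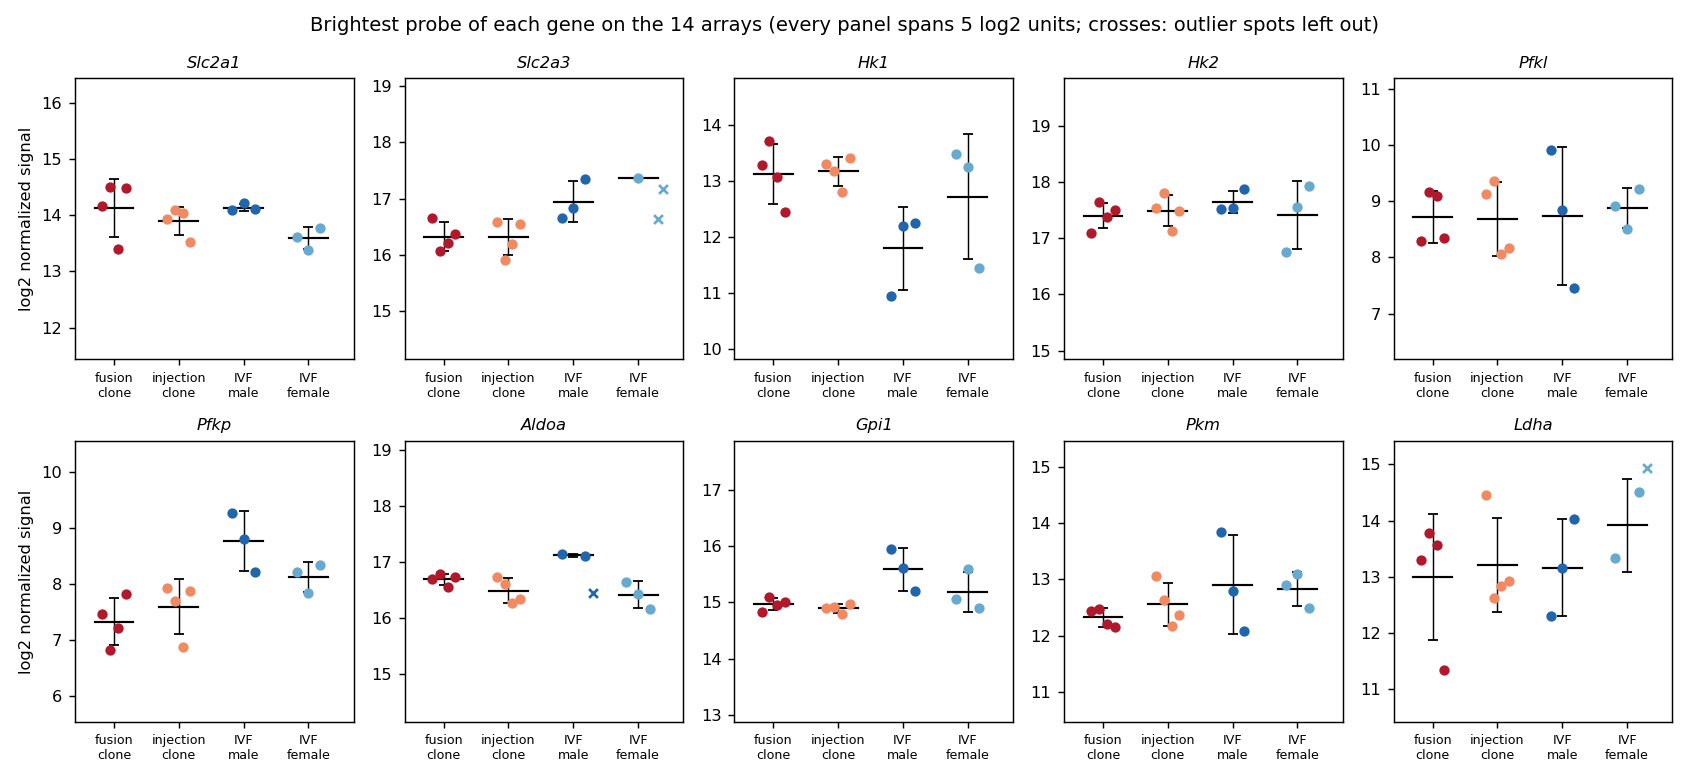
Log2 normalized signal of the brightest probe of each of the 10 genes (vertical axis, each panel spanning 5 units) in the 4 groups of blastocysts (horizontal axis). Points are arrays, bars are the group mean and its SD, and crosses are outlier spots left out of the means. *Slc2a3* in clones sits between 15.91 and 16.66, and *Ldha* on fusion clone replicate 4 sits at 11.33.

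Of the transporters, *Slc2a1* (Glut1, the widely expressed basal glucose carrier, chromosome 4) was well above background on all 14 arrays. Its log2 normalized signal was 14.16, 14.50, 13.40 and 14.48 in fusion clones and 13.93, 14.09, 14.05 and 13.53 in injection clones. It was 13.62, 13.38 and 13.78 in female IVF blastocysts and 14.09, 14.22 and 14.11 in male IVF blastocysts. In each kind of clone, 3 of 4 arrays were above every female IVF array, and 1 clone of each kind was within the female range. The difference from female IVF blastocysts was 0.54 (SE 0.31, 95% interval -0.20 to 1.29, adjusted p = 0.321) in fusion clones and 0.31 (SE 0.20, -0.17 to 0.78, adjusted p = 0.41) in injection clones, and both intervals included 0.

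*Slc2a3* encodes Glut3, the high-affinity carrier that trophectoderm places on its outer membrane. Its brightest probe gave 16.66, 16.07, 16.20 and 16.36 in fusion clones and 16.59, 15.91, 16.19 and 16.55 in injection clones. Male IVF blastocysts gave 16.65, 16.83 and 17.35. Among female IVF arrays, the spots of replicates 1 and 2 were marked as outliers by the scanner software and were left out, which left replicate 3 at 17.37. With these spots kept, replicates 1 and 2 read 16.64 and 17.17. The clones therefore lay at or below the lowest IVF value except for fusion clone replicate 1 at 16.66. The fit on the single female value gave -1.05 (SE 0.33, -1.92 to -0.17, 2.06-fold lower, unadjusted p = 0.029, adjusted p = 0.135) in fusion clones. In injection clones it gave -1.06 (SE 0.36, -2.03 to -0.09, 2.08-fold lower, unadjusted p = 0.0389, adjusted p = 0.191). With the outlier spots kept, the differences were -0.72 (SE 0.25, adjusted p = 0.13) and -0.73 (SE 0.26, adjusted p = 0.169), which are below 2-fold. The call by the looser rule thus ended when the outlier spots were kept.

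The other *Slc2a3* probes were dim. At this end of the scale the deposited signals differ between the sets, since 6790 to 9981 spots on each IVF array and none on the clone arrays were below 0. The second, 9698 bases toward the transcript start on chromosome 6, was above background on 3 fusion clones, 1 injection clone, 1 male and no female IVF array. Its highest values were 8.24 on fusion clone replicate 4 and 7.22 on injection clone replicate 1, and most other arrays were at the floor of 4.0. The mean of fusion clones was 3.3-fold above that of the female arrays on it (adjusted p = 0.298). That of injection clones was 1.75-fold above (adjusted p = 0.6). All 3 female arrays lay at the floor, as did fusion clone replicate 3 and injection clone replicates 2, 3 and 4. With floor values on both sides, these folds are not lower bounds, and the injection value rests on replicate 1. The third probe, which the array annotation puts on chromosome 17, was at the floor on all 14 arrays.

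Hexokinases trap glucose in the cell. *Hk2*, the inducible muscle-type form, was bright on every array, at 17.10, 17.64, 17.38 and 17.51 in fusion clones and 17.55, 17.81, 17.13 and 17.48 in injection clones. Female IVF arrays gave 16.76, 17.56 and 17.94 and male IVF arrays 17.52, 17.54 and 17.88. All 8 clones were inside the female range. The difference was -0.01 (-0.76 to 0.73, adjusted p = 0.983) in fusion clones and 0.07 (-0.70 to 0.85, adjusted p = 0.909) in injection clones, and both intervals reached to 0.70 or farther in either direction.

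*Hk1*, the constitutive form that most tissues carry, had 6 probes. Its brightest probe gave 13.29, 13.71, 13.06 and 12.44 in fusion clones and 13.30, 13.18, 12.81 and 13.40 in injection clones. Female IVF arrays gave 13.47, 13.24 and 11.44, and male IVF arrays 10.94, 12.20 and 12.25. All 8 clones were above all 3 males, whereas female replicate 3 stood with the males. The differences from females were 0.41 (-0.94 to 1.75, adjusted p = 0.648) in fusion clones and 0.45 (-0.79 to 1.70, adjusted p = 0.606) in injection clones. Leaving out female replicate 3 turned both directions, to -0.23 and -0.18. The other 5 probes lay 819 to 89203 bases farther toward the transcript start and were above background on 14, 12, 8, 1 and 2 arrays, with no value over 6.69.

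*Gpi1*, glucose-6-phosphate isomerase, was measured by a probe printed on 10 spots and was among the steadiest members. Its level was 14.83, 15.10, 14.96 and 15.01 in fusion clones and 14.90, 14.92, 14.79 and 14.98 in injection clones. IVF arrays gave 15.07, 15.59 and 14.91 in females and 15.96, 15.61 and 15.20 in males. The 8 clones lay between 14.79 and 15.10 and overlapped only the lower female values. The differences from females were -0.21 (-0.71 to 0.29, adjusted p = 0.543) and -0.29 (-0.76 to 0.17, adjusted p = 0.421) in fusion and injection clones. A second probe, 7667 bases away, was above background on 12 arrays with values from 4.26 to 5.59.

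Phosphofructokinase makes the committed step of the pathway. *Pfkl*, its liver-type subunit, gave 8.30, 9.16, 9.09 and 8.35 in fusion clones, 9.13, 9.37, 8.07 and 8.16 in injection clones, 8.91, 8.51 and 9.22 in females and 9.92, 8.85 and 7.46 in males. The groups overlapped throughout, and the males alone spanned the values of all other groups. Differences from females were -0.16 (-0.91 to 0.60) in fusion and -0.20 (-1.17 to 0.77) in injection clones, with adjusted p of 0.758 and 0.775.

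*Pfkp*, the platelet-type subunit, gave 7.46, 6.82, 7.22 and 7.82 in fusion clones and 7.93, 7.70, 6.88 and 7.87 in injection clones on its brightest probe. Females gave 8.21, 7.83 and 8.34 and males 9.27, 8.81 and 8.21. All 4 fusion clones were below all 3 females, though the nearest arrays read 7.82 and 7.83. The difference was -0.80 (SE 0.28, -1.47 to -0.13, 1.74-fold lower, unadjusted p = 0.026, adjusted p = 0.126) in fusion clones and -0.53 (SE 0.30, -1.27 to 0.20, adjusted p = 0.354) in injection clones. It was 1 of the 3 member probes on which fusion clones and females did not overlap.

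The second *Pfkp* probe, 4689 bases toward the transcript start, gave 5.73, 4.95, 7.11 and 4.0 in fusion clones and 4.65, 6.86, 7.54 and 6.43 in injection clones. Females gave 7.66, 6.93 and 8.30 and males 8.26, 7.71 and 8.17. Fusion clone replicate 3 was the only fusion clone inside the female range, and replicate 4 was at the floor. The difference was -2.18 (SE 0.75, -3.99 to -0.37, 4.54-fold lower, unadjusted p = 0.0252, adjusted p = 0.124) in fusion clones and -1.26 (adjusted p = 0.363) in injection clones. The 2 probes had the same direction, but over the arrays they ranked the blastocysts only loosely (Pearson's r = 0.47, Spearman's rho = 0.62, 14 arrays). The third probe, 9172 bases away, was above background on 5 arrays, on no fusion clone and on 1 of 3 female arrays. The female mean was 2.75-fold above that of fusion clones there (adjusted p = 0.443). This value rests on female replicate 3 at 8.37, since the other female arrays and all fusion clones were at the floor.

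**Figure D2:**
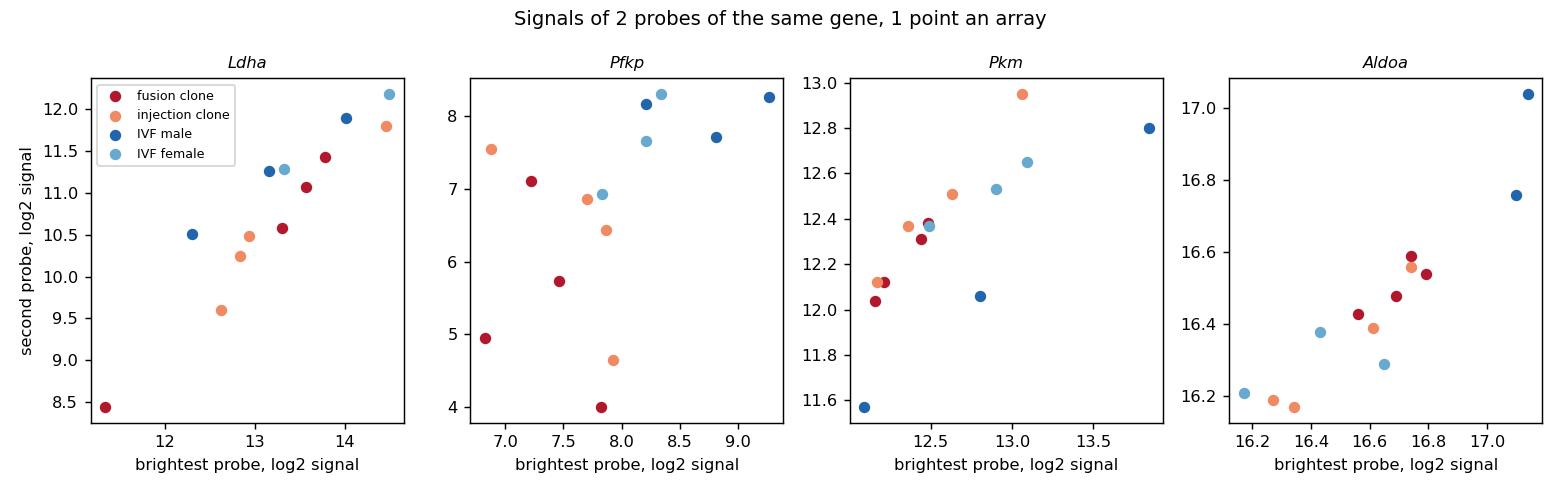
Log2 normalized signal of the second probe (vertical axis) against the brightest probe (horizontal axis) of *Ldha*, *Pfkp*, *Pkm* and *Aldoa*, with 1 point for each array on which both probes have a value. The points of *Ldha* and *Aldoa* lie along a line (Pearson's r = 0.93 for each, 13 arrays), those of *Pfkp* scatter (r = 0.47, 14 arrays), and fusion clone replicate 4 is the lowest point of *Ldha*.

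*Aldoa*, the aldolase that splits fructose-1,6-bisphosphate, was bright and steady. Fusion clones gave 16.69, 16.79, 16.56 and 16.74, injection clones 16.74, 16.61, 16.27 and 16.34, and females 16.65, 16.43 and 16.17. Males gave 17.14 and 17.10, with replicate 3 left out as an outlier spot (16.44 when kept). The differences from females were 0.28 (-0.14 to 0.69, adjusted p = 0.371) and 0.07 (-0.39 to 0.53, adjusted p = 0.831) in fusion and injection clones, and the first was -0.01 under another background correction. On the second probe the 4 fusion clones, 16.43 to 16.59, were all above the 3 females, 16.21 to 16.38. That difference was 0.22 (-0.13 to 0.56, adjusted p = 0.388).

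*Pkm*, pyruvate kinase of most non-hepatic tissues, gave 12.44, 12.48, 12.21 and 12.16 in fusion clones and 13.06, 12.63, 12.17 and 12.36 in injection clones. Females gave 12.90, 13.09 and 12.49 and males 13.84, 12.80 and 12.09. The fusion clones were all below the females, with the nearest arrays at 12.48 and 12.49, while the injection clones and the males overlapped them. The difference was -0.50 (SE 0.20, -0.99 to -0.02, 1.42-fold lower, unadjusted p = 0.0442, adjusted p = 0.172) in fusion clones and -0.27 (-0.91 to 0.37, adjusted p = 0.571) in injection clones. The second probe, 148 bases away, overlapped between fusion clones and females, with a difference of -0.30 (adjusted p = 0.302). The array annotation does not say which splice form of the gene either probe reads, so the forms were not separated.

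*Ldha*, the lactate dehydrogenase subunit that favours lactate formation, varied most between arrays. Its brightest probe gave 13.30, 13.78, 13.57 and 11.33 in fusion clones, 14.46, 12.62, 12.83 and 12.93 in injection clones, and 12.30, 13.16 and 14.02 in males. Females gave 13.33 and 14.50, with replicate 1 left out as an outlier spot (14.93 when kept). Fusion clone replicate 4 was lowest of all arrays, and injection clone replicate 1 stood with the upper female values. The difference from females was -0.92 (SE 0.80, -2.93 to 1.08, adjusted p = 0.5) in fusion and -0.70 (SE 0.65, -2.36 to 0.95, adjusted p = 0.554) in injection clones. With the outlier spot kept they were -1.23 (adjusted p = 0.315) and -1.02 (adjusted p = 0.365).

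A second *Ldha* probe, 1463 bases toward the transcript start, had a value on every array. It gave 10.58, 11.43, 11.07 and 8.44 in fusion clones, 11.80, 9.60, 10.25 and 10.49 in injection clones, 12.79, 11.28 and 12.18 in females and 10.51, 11.26 and 11.90 in males. In each kind of clone, 3 of 4 arrays were below every female, and fusion clone replicate 4 and injection clone replicate 1 were again the lowest and the highest clone. The difference was -1.70 (SE 0.78, -3.57 to 0.17, 3.25-fold lower, unadjusted p = 0.0683, adjusted p = 0.219) in fusion clones. In injection clones it was -1.55 (SE 0.60, -3.01 to -0.09, 2.92-fold lower, unadjusted p = 0.0408, adjusted p = 0.195).

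**Figure D3:**
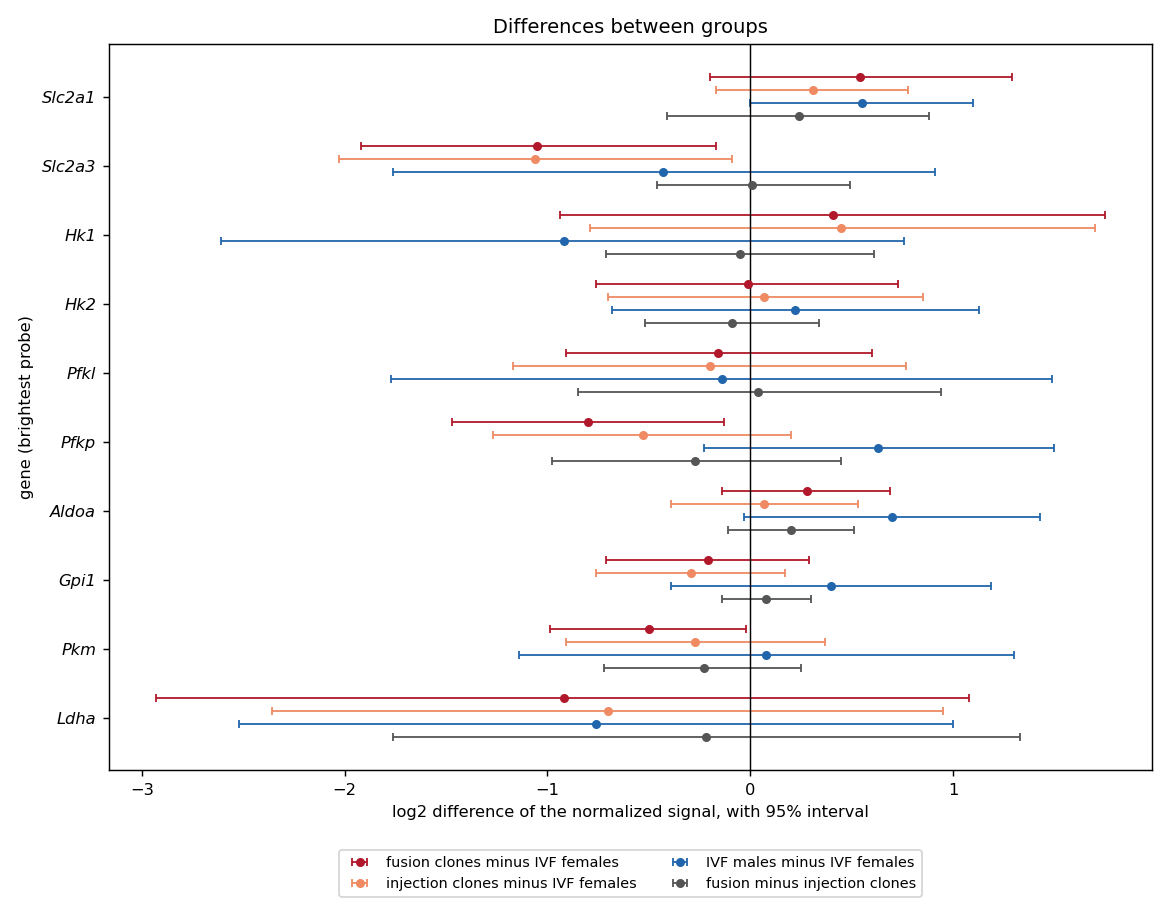
Difference of the log2 normalized signal (horizontal axis, with 95% intervals from limma) for the brightest probe of each gene (vertical axis) in the 4 comparisons. The intervals of *Slc2a3* in both clone comparisons and of *Pfkp* and *Pkm* in fusion clones lie below 0 before adjustment over all probes (those of *Slc2a3* against females rest on 1 female array), and the other clone intervals cross 0.

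The 2 ways of nuclear transfer were compared directly as well, each on its own slide. None of the 21 tested member probes reached an unadjusted p under 0.05 between fusion and injection clones, where 6.17% of all probes did, so a count of 0 is near the background. The values that follow are those of the brightest probes. For the transporters the difference was 0.24 (-0.41 to 0.88, adjusted p = 0.831) for *Slc2a1* and 0.01 (-0.46 to 0.49, adjusted p = 1) for *Slc2a3*. Among the 10 brightest probes, the narrowest intervals were those of *Gpi1* at 0.08 (-0.14 to 0.30) and *Aldoa* at 0.20 (-0.11 to 0.51). The widest was that of *Ldha* at -0.22 (-1.76 to 1.33), which did not exclude a 2-fold difference in either direction. *Hk2* (-0.09, -0.52 to 0.34), *Hk1* (-0.05, -0.71 to 0.61), *Pkm* (-0.23, -0.72 to 0.25), *Pfkp* (-0.27, -0.98 to 0.45) and *Pfkl* (0.04, -0.85 to 0.94) lay between these.

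Male and female IVF blastocysts, again each on their own slide, served as a comparison without cloning. *Slc2a1* was the only member probe, among the 18 with a value on every array, on which the sexes did not overlap. The 3 males, 14.09 to 14.22, were above the 3 females, 13.38 to 13.78, with a difference of 0.55 (SE 0.22, 0.00 to 1.1, unadjusted p = 0.0489, adjusted p = 0.641). This was close to the 0.54 between fusion clones and the same females. *Hk1* gave -0.92 (SE 0.68, -2.61 to 0.76, adjusted p = 0.724), *Aldoa* 0.70 on 2 males (SE 0.28, -0.03 to 1.43, adjusted p = 0.649) and *Ldha* -0.76 on 2 females (-2.52 to 1.0, adjusted p = 0.724). *Slc2a3* gave -0.43 on 1 female (-1.76 to 0.91, adjusted p = 0.746) and -0.14 with the outlier spots kept. The remaining differences were 0.63 for *Pfkp* (-0.23 to 1.5), 0.40 for *Gpi1* (-0.39 to 1.19), 0.22 for *Hk2* (-0.68 to 1.13), 0.08 for *Pkm* (-1.14 to 1.30) and -0.14 for *Pfkl* (-1.77 to 1.49).

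The members differed widely in how much arrays of the same group varied. The SD within groups, pooled over the 4 groups, was 0.18 for *Aldoa*, 0.24 for *Gpi1*, 0.31 for *Slc2a3*, 0.33 for *Slc2a1* and 0.35 for *Hk2*. These stood below the median SD of 0.44 over the 17895 probes ranked, with *Aldoa* at the 3.3 and *Gpi1* at the 11.1 percentile. The *Slc2a3* value takes in no female spread, since 1 female array was left on that probe. The *Aldoa* value leaves out the outlier spot of male replicate 3 (16.44 when kept, against 17.14 and 17.10). The second *Aldoa* probe, with a value on every array, had an SD of 0.24, at the 9.8 percentile. *Pfkp* was at 0.44 and *Pkm* at 0.47, and *Hk1* and *Pfkl* at 0.68 and 0.73. *Ldha* was highest at 0.95, the 91.4 percentile, and its second probe had an SD of 1.0. Both transporters and *Hk2* thus lay below the median spread and *Hk1* above it, as a description with no test.

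**Figure D4:**
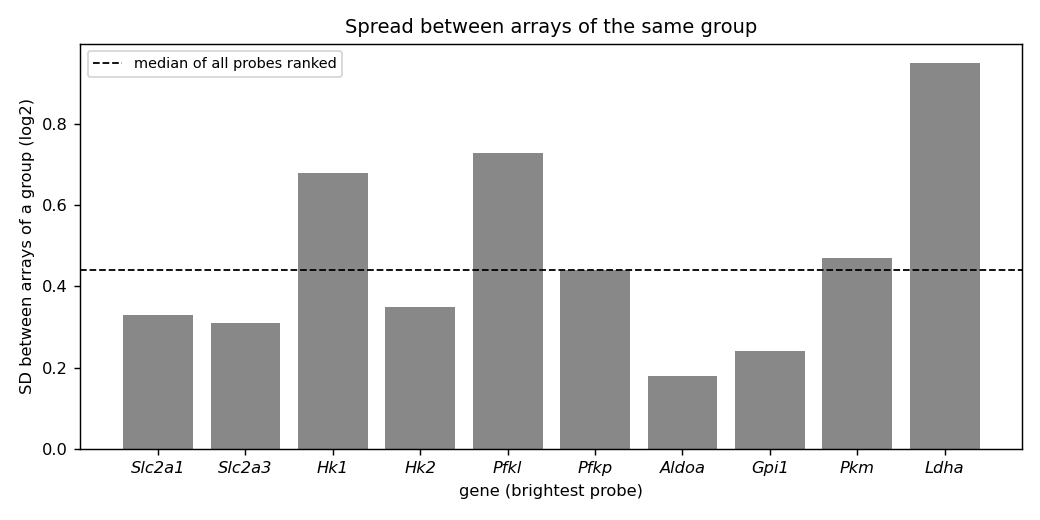
SD of the log2 normalized signal between arrays of the same group, pooled over the 4 groups (vertical axis, bars), for the brightest probe of each gene (horizontal axis). The *Slc2a3* bar takes in no female spread, and the *Aldoa* bar leaves out male replicate 3. The dashed line is the median over all probes ranked, 0.44, with *Aldoa* at 0.18 lowest and *Ldha* at 0.95 highest.

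Of the 5 other enzymes of the main pathway, none of 6 probes was called in any comparison. *Pgk1*, phosphoglycerate kinase, is X-linked and makes the first ATP of the pathway. It gave 13.45, 15.59, 14.25 and 15.49 in fusion clones, 14.98, 14.32, 13.99 and 14.59 in injection clones and 15.41, 15.31 and 15.86 in females. All 4 injection clones were below all 3 females (-1.06, SE 0.28, -1.73 to -0.39, unadjusted p = 0.00825, adjusted p = 0.0896), whereas a pair of fusion clones was within the female range and the other pair below it (-0.83, SE 0.57, adjusted p = 0.405). Males gave 15.68, 15.32 and 15.73, a difference of 0.05 from females.

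*Pgam1*, phosphoglycerate mutase, differed from females by -0.11 in fusion and -0.03 in injection clones, *Tpi1*, triose phosphate isomerase, by 0.19 and -0.25, and *Eno1*, the ubiquitous enolase, by -0.18 and -0.30. The 3 males, 9.0 to 9.28, were above the females, 7.70 to 8.71, for *Eno1* (0.85, unadjusted p = 0.0469, adjusted p = 0.64). *Gapdh*, glyceraldehyde-3-phosphate dehydrogenase, has many near-identical copies in the genome. Its probe gave -0.37 in fusion clones, -0.27 in injection clones and -1.20 in males (adjusted p = 0.627). The *Gapdh* probe read only 6.57 to 8.54 over the arrays and the *Eno1* probe 7.53 to 9.28. By contrast, *Tpi1* read 14.75 to 16.81 and *Pgam1* 16.16 to 16.83. What part of the *Gapdh* and *Eno1* transcripts these probes read was not tested.

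**Figure D5:**
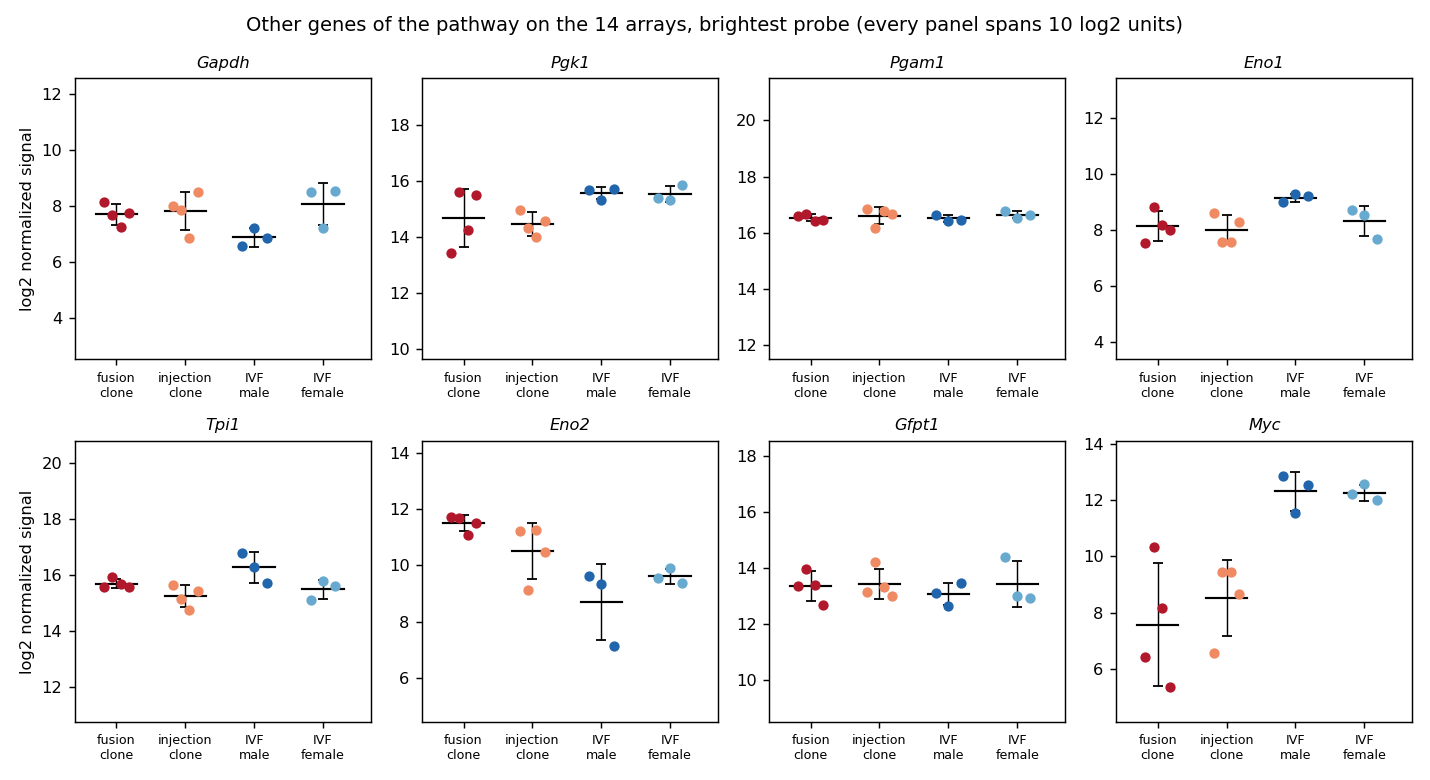
Log2 normalized signal of the brightest probe of 8 other genes of the pathway (vertical axis, each panel spanning 10 units) in the 4 groups (horizontal axis). Points are arrays and bars are the group mean and its SD, with *Eno2* in fusion clones at 11.10 to 11.73 above females at 9.36 to 9.90 and *Myc* in all clones below all IVF blastocysts.

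Among 95 probes of 56 genes that stand beside the 10 members (the 5 enzymes above, isoenzymes and other transporters, and the fates of glucose and pyruvate), 84 were tested against females in each clone comparison. In fusion clones 3 were called higher and 1 lower, in injection clones 1 was called lower, and between clones and between the sexes none was called. At 4 of 84 and 1 of 84, the counts were not above the 9.5% and 3.67% of all probes. The median difference of these probes was -0.09 in fusion and -0.07 in injection clones.

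*Eno2*, the neuronal-type enolase, was the only gene called by its brightest probe. It gave 11.73, 11.69, 11.10 and 11.50 in fusion clones and 11.22, 9.13, 11.26 and 10.47 in injection clones. Females gave 9.57, 9.90 and 9.36 and males 9.64, 9.33 and 7.13. All 4 fusion clones were above all IVF blastocysts, and injection clone replicate 2 was below the females. *Eno2* rose by 1.89 in fusion clones (SE 0.23, 1.34 to 2.45, adjusted p = 0.00909), and its second probe rose by 1.83 (SE 0.29, adjusted p = 0.0178). The difference was 0.91 (SE 0.55, -0.43 to 2.25, adjusted p = 0.391) in injection clones, and that between fusion and injection clones was 0.99 (-0.16 to 2.13, adjusted p = 0.814), so the 2 kinds of clone were not shown to differ. The call in fusion clones was lost when all 4 groups shared 1 fit (adjusted p = 0.0678).

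The other called probes each were the third brightest of their gene and are named here after their values were seen. *Myc*, a transcription factor that drives many glycolytic genes, fell by 3.18 in fusion clones (SE 0.55, adjusted p = 0.0231) and by 3.06 in injection clones (SE 0.29, adjusted p = 0.0128) on the third probe of the gene. That probe was dim in clones, at 4.33, 6.22, 4.81 and 4.10 in fusion and 4.60, 5.22, 4.91 and 5.24 in injection clones. Females gave 8.18, 8.46 and 7.50 on it. The brightest *Myc* probe gave 6.43, 10.34, 8.18 and 5.35 in fusion clones, 6.55, 9.45, 9.44 and 8.65 in injection clones and 12.24, 12.57 and 12.01 in females. These differences of -4.70 and -3.75 missed the threshold, at an adjusted p of 0.0529 and 0.053, with the fusion clones alone spread from 5.35 to 10.34. *Gfpt1*, the entry enzyme of the hexosamine route, rose by 1.99 on the third probe in fusion clones (SE 0.33, adjusted p = 0.0208), and the second probe differed by 1.52 (SE 0.42, adjusted p = 0.0716), with all fusion clones above all females. On the third probe females gave 5.11, 4.06 and 4.19, near the floor, and 1 of 3 was above background. Fusion clones gave 6.83, 6.16, 6.66 and 6.14 on it and injection clones 5.31, 6.57, 6.61 and 5.77. Males gave 5.07, 7.12 and 4.93, so that male replicate 2 was above every clone. The deposited signals of clone and IVF arrays differ at this dim end of the scale. The brightest probe, listed under the name *2810423A18Rik* and placed here by its RefSeq symbol, differed by -0.08 (adjusted p = 0.923), and the fourth was not above background on any array. The *Myc* call in fusion clones was lost without fusion clone replicate 1, 3 or 4 or female replicate 1 or 2 (-3.17 to -2.93, adjusted p from 0.0506 to 0.0641). The *Gfpt1* call was lost without fusion clone replicate 1, 2 or 3 or female replicate 3 (1.86 to 2.09, adjusted p from 0.0503 to 0.0601). Under the other processing settings, averaged probes included, the differences in fusion clones ran from 0.77 to 2.38 for *Gfpt1* and from -4.19 to -1.69 for *Myc*.

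The genes whose brightest-probe pattern over the arrays was most like that of a member were listed for 4 members, among 17478 probes above background on all arrays. For *Slc2a1* they were *Rplp1*, *Slc25a25* and *Prkab2* (Pearson's r = 0.824, 0.765 and 0.761, 14 arrays) and for *Slc2a3* *Myof*, *Smim14* and *Dab2* (0.932, 0.931 and 0.928, 12 arrays). For *Hk2* they were *Foxred2*, *Trip12* and *Elmo2* (0.89, 0.872 and 0.87, 14 arrays) and for *Ldha* *Rnpc3*, *Oip5os1* and *Acadsb* (0.94, 0.907 and 0.898, 13 arrays). These are the highest of many correlations over arrays that share groups and slides, and they are given as a description.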

How the data were processed

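RNA of each sample was amplified in 2 rounds, labelled with Cy3 and hybridised to an Agilent whole mouse genome array. The authors extracted spot intensity values with Agilent Feature Extraction 10.5.1, per the labels; the arrays' own headers give a different software version for clone and IVF arrays. The deposited processed signal is a background-subtracted intensity on a linear scale, with values below 0 on IVF arrays (6790 to 9981 spots) and none on clone arrays, and the deposited series table holds log2 values of the same arrays. The genome build of the probe positions is not given in the sources used here, so only distances between probes are stated. Of the gene probes, 33013 of 41174 (80.2%) matched a RefSeq symbol.

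Here spots marked as outliers (101 to 338 an array) were left out. The processed signals of the other gene spots underwent quantile normalization, values under 16 were raised to 16, and the mean log2 value of its spots stood for each probe. Probes that were below background on all arrays of both groups were not tested. Groups were compared in pairs with limma 3.58.1 (lmFit and eBayes, R 4.3.3) and Benjamini-Hochberg adjustment over all probes tested. The brightest probe has the highest mean over the arrays. The fit was tested on simulated data. The text names every member, the 5 other enzymes of the main pathway by their brightest probe, up to 8 other pathway genes that rose and 8 that fell among those called with at least a 2-fold difference, and the 3 genes most alike 4 of the members. The members and lists were chosen with earlier results of these data known. Deviations of same-numbered male and female IVF arrays had correlations of 0.15, 0.17 and 0.17 over probes. Same-numbered arrays of the other comparisons gave -0.12 to 0.17. Arrays with different numbers were not correlated, so these values cannot show whether the replicate number is a pairing, and the labels do not say. The fits reported use no block. The number of arrays limits the precision.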

Additional observations from a re-analysis of the deposited data

Results flagged for a closer look

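*Ldha* in injection clones was noted because replicate 1 lay far from the other 3 arrays of its group on the brightest probe. Its log2 signal was 14.46, against 12.93 on the nearest array, and this gap was 0.835 of the group's range, just past the 95% limit of Dixon's test for 4 arrays. Of the 20 groups of 4 arrays examined, 1 was past the limit, and chance gives about 1 in 20.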

How the results depend on the processing

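No member probe was called in any of the 4 comparisons under any setting run, and the smallest adjusted p of a member over all of them was 0.0633, in fusion clones against female IVF with normexp. By the looser rule, 0 to 3 members were picked in fusion and 0 to 2 in injection clones. Without female replicate 3 it was 0 in each, but the brightest *Slc2a3* probe then had no female value and could not be tested. Over all probes, 3085 of 32458 called in fusion clones (9.5%) became 1125 to 2824 with 1 array left out. With probes averaged per gene it was 1880 of 22239 genes (8.45%). The count rose to 4334 of 22934 (18.9%) with the filter on every array of a group and to 4184 of 35024 (11.9%) with all 4 groups in 1 fit. In injection clones 1205 of 32840 (3.67%) became 629 with the series table, 599 with a floor of 1 and 160 to 1039 with 1 array left out. It was 774 of 41156 (1.88%) without the filter on dim probes and 770 of 22480 genes (3.43%) with averaged probes. It was 1932 of 23125 (8.35%) with the filter on every array of a group and 3008 of 35024 (8.59%) with all 4 groups in 1 fit. The count was 0 to 11 between the clones (0 in the fit reported) and 0 to 210 between the sexes (19 in the fit reported). Keeping the outlier spots was a choice made after seeing the data. The slide as a block was not run, since each group lay on 1 slide of its own and the block could not be fitted.

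Some signs turned. In fusion clones against females, normexp gave 0.06 for *Hk2* and -0.01 for *Aldoa*, and outlier spots kept gave 0 for *Hk2*. The series table gave 0.03 for *Eno1*. Averaging the probes of a gene gave 0.34 for *Slc2a3* (-1.05 on the brightest probe). That mean takes in the brightest and the dim second probe, the third being untested, and rests on 1 female array. In injection clones against females, 75th percentile scaling gave -0.16 for *Hk2* and -0.02 for *Aldoa*, normexp -0.08 for *Aldoa*, the series table -0.13 for *Hk2* and 0 for *Aldoa*, and outlier spots kept 0 for *Pgam1*. Between fusion and injection clones, 75th percentile scaling and the series table gave -0.02 for *Slc2a3*, normexp gave 0.05 for *Hk1*, -0.04 for *Pfkl* and 0.01 for *Pgam1*, and a floor of 32 gave 0.19 for the third *Myc* probe. Between the sexes, averaged probes gave -0.15 for *Pkm*. The cause was not tested.

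Leaving out 1 array at a time also turned signs or gave values that rounded to 0. In fusion clones against females the ranges were -0.23 to 0.78 for *Hk1*, -0.35 to 0.25 for *Hk2*, -0.34 to 0.01 for *Pfkl*, -0.48 to 0.03 for *Eno1* and 0 to 0.34 for *Tpi1*. In injection clones they were -0.18 to 0.83 for *Hk1*, -0.26 to 0.33 for *Hk2*, -0.43 to 0 for *Pfkl*, -0.05 to 0.19 for *Aldoa*, -0.10 to 0.12 for *Pgam1* and -0.70 to 0.04 for *Gapdh*. Between the clones they were -0.12 to 0.10 for *Slc2a3*, -0.24 to 0.18 for *Hk1*, -0.21 to 0.02 for *Hk2*, -0.16 to 0.27 for *Pfkl*, -0.48 to 0.34 for *Ldha*, -0.11 to 0.33 for *Eno1*, -0.41 to 0.12 for *Gapdh*, -0.07 to 0.64 for *Pgk1* and -0.58 to 0.13 for the third *Myc* probe. Between the sexes they were -0.11 to 0.49 for *Hk2*, -0.73 to 0.50 for *Pfkl*, -0.38 to 0.49 for *Pkm*, -0.06 to 0.22 for *Pgk1* and -0.07 to 0.67 for the third *Myc* probe.

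With the replicate number as a block, 0 members were called, and 0 of all probes in each comparison. The calls of *Eno2* in fusion clones (1.90, adjusted p = 0.122), of the third *Myc* probe in fusion (-2.93, adjusted p = 0.133) and injection clones (-3.14, adjusted p = 0.158) and of the third *Gfpt1* probe (2.10, adjusted p = 0.125) were lost. The *Myc* call in fusion clones was also lost on averaged probes (-4.19).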

Other observations

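A few other genes of the pathway varied widely between single arrays, and they were picked out after their values were seen. *Pdk2*, a kinase that inactivates pyruvate dehydrogenase, was at 10.20 and 11.27 on injection clone replicates 1 and 2 and at 10.11 and 12.77 on female IVF replicates 1 and 3. The other 10 arrays lay between 5.16 and 7.13. Its SD within groups was 2.14, at the 99.8 percentile of the probes ranked. *Pfkfb3*, which makes the activator of phosphofructokinase, was at 12.79 on fusion clone replicate 1, and the other arrays lay between the floor of 4.0 and 8.81. *Slc2a12*, a further glucose carrier, had an SD of 1.79.

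*Txnip*, a glucose-responsive inhibitor of glucose uptake, gave 13.05, 13.69, 12.89 and 13.15 in fusion clones and 11.89, 13.01, 11.97 and 13.29 in injection clones. Females gave 12.82, 11.26 and 9.41 and males 10.71, 4.0 and 6.52. The difference between fusion clones and females was 2.03 and missed the threshold (adjusted p = 0.147).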
